A study of Homo sapiens with 20 samples.

Results

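SUP-HD1 is an established cell line of classical Hodgkin lymphoma, a tumour that arises from B cells but expresses few of their typical genes. The results here concern its response to activation of FOXO1, read from the 4 arrays titled with this line out of the 20 arrays of the series: 2 arrays of cells given 4-hydroxytamoxifen (4-OHT) and 2 arrays of cells given ethanol vehicle, both for 24 h. The other 16 arrays hold the same pair of groups, 2 arrays each, from 4 further Hodgkin lines, UHO-1, L1236, L428 and KM-H2. All 5 lines stably express FOXO1(3A)ER, a constitutively active human FOXO1 fused to the hormone-binding part of the oestrogen receptor, so the vehicle cells carry the fusion protein as well. The labels' treatment text states a 4-OHT dose for cells with another fusion protein, so no dose is given here. That text also says the experiment was done 2 times; whether replicate arrays stem from separate cultures is not stated, so p-values reflect only how far these arrays differ, which may be technical. Cells lacking the fusion protein were not analysed here, and what 4-OHT does by itself therefore cannot be told apart from what FOXO1 does. Of 18416 genes with a probe set that carries a single symbol, 15850 reached a log2 signal of 5 in at least 2 of the 20 arrays and were tested.

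FOXO1 is a forkhead transcription factor of the insulin and PI3K pathway. The kinase AKT phosphorylates it and keeps it out of the nucleus; the 3A mutant lacks the AKT sites, and the receptor domain holds the fusion protein inactive until 4-OHT binds. In B cells FOXO1 serves early differentiation and the germinal centre, and its known targets include inhibitors of the cell cycle such as CDKN1B, stress genes such as GADD45A and SESN1, and genes that feed back on insulin signalling such as IGF1R and PIK3IP1. FOXO factors also oppose MYC, which drives ribosome production and DNA replication through E-box sequences.

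Signals were log2 values, and the arrays of SUP-HD1 were alike in level, with medians from 6.26 to 6.34. The SD of the difference between the vehicle arrays, over the probe sets compared, was 0.189 log2 units, and 0.134 between the 4-OHT arrays. Of 10 markers of Hodgkin cells, 7 had a vehicle mean of at least 8 and 0 lay below 6, among them the transcription factor IRF4 at 12.1 and the actin bundler FSCN1 at 10.9. TNFRSF8, the Hodgkin antigen CD30, was among the lower ones, with a vehicle mean of 7.14 against 11.1 in UHO-1, which was normalised in the same run. Of the B cell markers, 5 of 7 had a probe set with a single symbol, and 1 of them, PAX5, reached 8. Of 9 T cell markers, 7 lay below 6 and 1, CD7, reached 8, and 5 of 6 myeloid markers lay below 6. The mean level of the Hodgkin markers was 9.67 to 9.70 in the vehicle arrays and 9.67 to 9.68 in the 4-OHT arrays, and that of the T cell markers 5.84 to 5.97 and 5.86 to 5.90. Of these short marker sets, 4 B cell, 9 T cell, 5 myeloid and 5 stromal or epithelial genes passed the filter on low values. By limma, 0 of them were called between the arms, whereas 1 of the 10 Hodgkin markers, LTA, was called lower with 4-OHT. Over all genes tested 6.03% were called, so sets this small would hold few calls in any case. Here and below, a gene was called when the adjusted p of limma, a linear model fitted to all 20 arrays, was under 0.05.

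SUP-HD1 answered with fewer genes than any other line. With 4-OHT, 583 genes were called higher and 373 lower, which is 3.68% and 2.35% of the genes tested. The 956 genes make 6.03% of those tested, against 24.5% in UHO-1, 23.1% in L1236, 29.5% in L428 and 22.3% in KM-H2. All 956 had both 4-OHT arrays on one side of both vehicle arrays; among all genes tested, 19.1% lay wholly higher and 25.4% wholly lower with 4-OHT. The changes over all genes were also narrower, with an SD of 0.19 log2 units in SUP-HD1. It was 0.30 in UHO-1 and 0.31 in L1236, which were normalised in the same run. In L428 and KM-H2, normalised apart, it was 0.35 and 0.38. Whether the 2 runs differ in the scale of a change was not tested. The median of the called rises was 0.48 log2 units in SUP-HD1 and 0.41 to 0.45 in the other lines, and that of the called falls was -0.32, against -0.37 to -0.42. These medians depend on the adjusted threshold, which is stricter where fewer genes are called. Of the rises, 65 reached 1 log2 unit, but of the falls only 3 did, those of HHLA2, GPR183 and CCL2.

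The number of calls fell when any single SUP-HD1 array was left out. Such a fit leaves 1 array in that arm and has a larger SE, which by itself lowers the number of calls. How much of the fall stems from this was not tested, here or for the gene lists below. Without vehicle replicate 2 the counts were 328 higher and 348 lower, and without vehicle replicate 1 they were 549 and 139. Without 4-OHT replicate 1 they were 278 and 155, and without 4-OHT replicate 2 they were 364 and 87. SUP-HD1 still had the fewest calls of the 5 lines in all 24 settings that fitted every line, with 2.03 to 7.85 times as many in the next line. Fitted on its own 4 arrays it had 883 calls, against 3034 to 4962 in the other lines fitted alone.

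**Figure D1:**
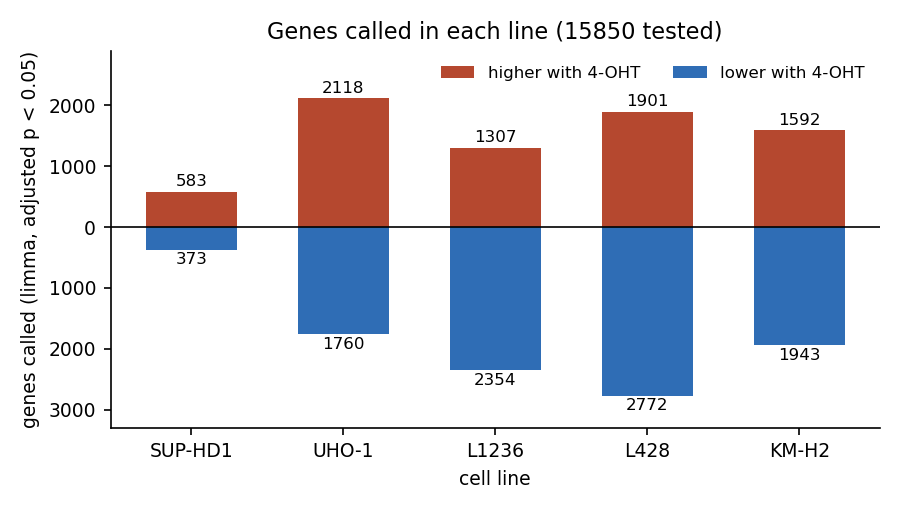
Bars give the number of genes called higher (upwards) and lower (downwards) with 4-OHT in each cell line, of 15850 tested on 2 arrays per arm. SUP-HD1 has 583 and 373, and the next smallest bars are 1307 higher in L1236 and 1760 lower in UHO-1.

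The largest rises were in genes of several kinds, many of them near background in vehicle cells: 8 of the 20 largest had a vehicle mean below 6 and 15 below 7. PHOSPHO1, a phosphatase that releases phosphate for bone mineralisation, read 5.90 and 6.14 in the vehicle arrays and 9.05 and 8.96 in the 4-OHT arrays. It rose by 2.99 ± 0.13 log2 units (limma estimate ± SE, n = 2 arrays per arm, adjusted p = 5.38e-13). The arms lay far apart, and the spread within each was a small part of the difference. GPLD1, a phospholipase that cleaves proteins from their lipid anchors, went from 5.33 and 5.16 to 7.97 and 7.78, a rise of 2.63 ± 0.115 (adjusted p = 4.62e-13). CXCL16, a chemokine that is also a membrane-bound scavenger receptor, stood at 5.25 and 5.16 with vehicle and at 7.79 and 7.83 with 4-OHT, a rise of 2.61 ± 0.16 (adjusted p = 1.35e-10). Vehicle signals of both genes lay near the floor of the scale, so no fold is given for them.

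Transporters, channels and other membrane proteins were among the 20. SLC13A4, a sulphate transporter, read 6.47 and 6.33 with vehicle and 8.88 and 8.83 with 4-OHT, a rise of 2.46 ± 0.10 (adjusted p = 2.39e-13). PLPP3, a lipid phosphatase of the cell surface, was the tightest of the 20, with 8.10 and 8.09 against 10.30 and 10.32 and a rise of 2.21 ± 0.072 (adjusted p = 2.55e-15). KCNIP2, a subunit of potassium channels, rose by 1.87 ± 0.12, the bicarbonate transporter SLC4A8 by 1.63 ± 0.14, the tetraspanin TSPAN12 by 1.95 ± 0.12 and the membrane protein MYADM by 1.62 ± 0.085. Receptors were also among them. TSHR, the thyrotropin receptor, read 5.41 and 5.36 against 7.40 and 7.33 and rose by 1.98 ± 0.13 (adjusted p = 2.16e-10), and HTR2B, a serotonin receptor, rose by 1.71 ± 0.16. The organic anion transporter SLCO4C1 rose by 1.52 ± 0.17 in the probe set used, but its vehicle arrays differed (6.38 and 5.55) and its other probe set moved the opposite way.

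Regulators and signalling genes formed the rest. FOXP1, a forkhead factor of B cells, read 6.36 and 6.27 with vehicle and 8.18 and 8.22 with 4-OHT, a rise of 1.88 ± 0.086 or 3.69-fold (adjusted p = 7.76e-13). FYN, a SRC family kinase, rose by 1.73 ± 0.12 from 7.09 and 6.96 to 8.78 and 8.73. IFIT2, an interferon-induced inhibitor of translation, rose by 1.89 ± 0.12, although its vehicle arrays, at 6.49 and 6.06, stood further apart than its 4-OHT arrays at 8.17 and 8.16. DEPP1, a known FOXO target involved in autophagy, rose by 1.71 ± 0.115, ELMOD1, which acts on small GTPases, by 1.75 ± 0.11, ZSWIM5, a zinc finger gene, by 2.36 ± 0.15, YPEL2 by 1.56 ± 0.097 and ZP3, best known from the egg coat, by 1.68 ± 0.17. The rule that chose these 20 asked for arms that did not overlap, as was so for 19.1% of all genes tested. All 20 kept the call under each alternative tried, each left-out SUP-HD1 array included.

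**Figure D2:**
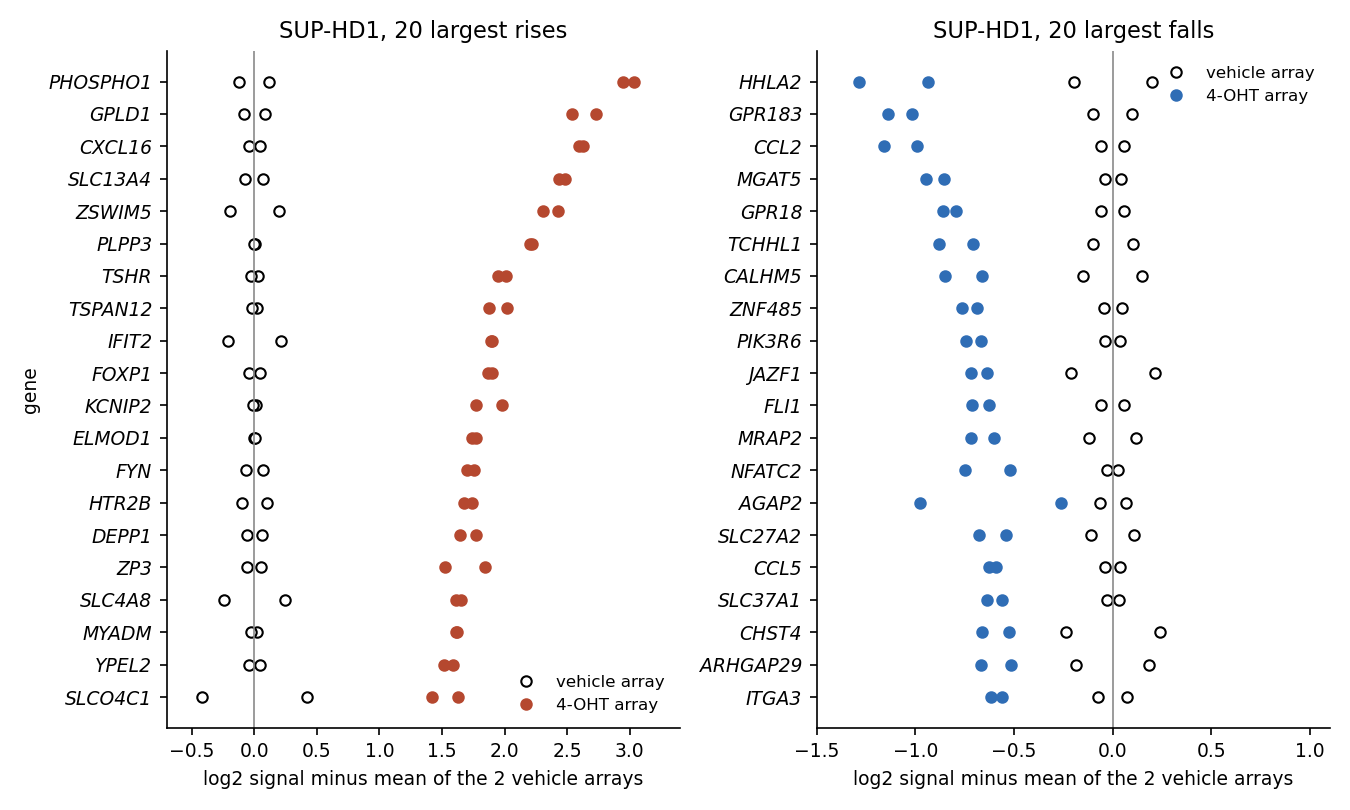
Each row is a gene, and each point is an array of SUP-HD1, drawn as its log2 signal minus the mean of the 2 vehicle arrays (open circles, vehicle; filled circles, 4-OHT). Genes were chosen among those whose groups do not overlap; in PHOSPHO1 the 4-OHT arrays lie about 3 log2 units above the vehicle arrays, and in AGAP2 a single 4-OHT array carries most of the fall.

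Several of these rises differed from those of the other lines. Of the 20, 5 were called higher in 0 of the other 4 lines: PHOSPHO1, CXCL16, TSHR, ZP3 and SLC4A8. PHOSPHO1 changed by 0.33 in UHO-1, 0.21 in L1236, -0.01 in L428 and 0.21 in KM-H2, and its change in SUP-HD1 exceeded their mean by 2.80 ± 0.15 (limma contrast, adjusted p = 1.19e-11). For CXCL16 the other changes ran from -0.36 in L428 to 0.40 in UHO-1, and the difference was 2.56 ± 0.18 (adjusted p = 1.12e-09). TSHR and SLC4A8 were called lower in L1236, by -0.69 and -0.61, and their differences from the mean of the other lines were 2.08 ± 0.14 and 1.79 ± 0.15 (adjusted p = 7.21e-10 and 4.11e-08). ZP3 differed by 1.60 ± 0.18 (adjusted p = 3.69e-06) and KCNIP2, which was called in 1 other line, UHO-1 (0.39), by 1.77 ± 0.13 (adjusted p = 5.80e-09). These genes were chosen for their large change in SUP-HD1, which enters each difference. TMEM164, outside the 20, rose by 1.17 ± 0.097 from 8.37 and 8.31 to 9.56 and 9.46 and was called lower in L1236 and KM-H2, a difference of 1.42 ± 0.11 (adjusted p = 6.49e-09).

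Other large rises of SUP-HD1 were shared. FOXP1 was called higher in every line, with changes from 0.98 in L1236 to 2.39 in UHO-1, and SUP-HD1 differed from the mean of the others by -0.02 ± 0.10 (adjusted p = 0.958). DEPP1 changed by 0.56 to 3.18 in the others, with a difference of 0.14 ± 0.13 (adjusted p = 0.698). RIPOR2 rose by 1.46 ± 0.10, and by 1.28 in KM-H2, 1.38 in UHO-1, 1.71 in L1236 and 2.0 in L428 (difference -0.13 ± 0.11, adjusted p = 0.674). HTR2B rose by 2.94 in UHO-1 and 3.05 in L428 but was not called in L1236 or KM-H2. By the test of the difference, 20 of these 20 genes rose more in SUP-HD1 than in L1236, 15 more than in UHO-1 and 17 more than in the mean of the other 4 lines, counts that describe genes chosen for their rise in SUP-HD1.

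**Figure D3:**
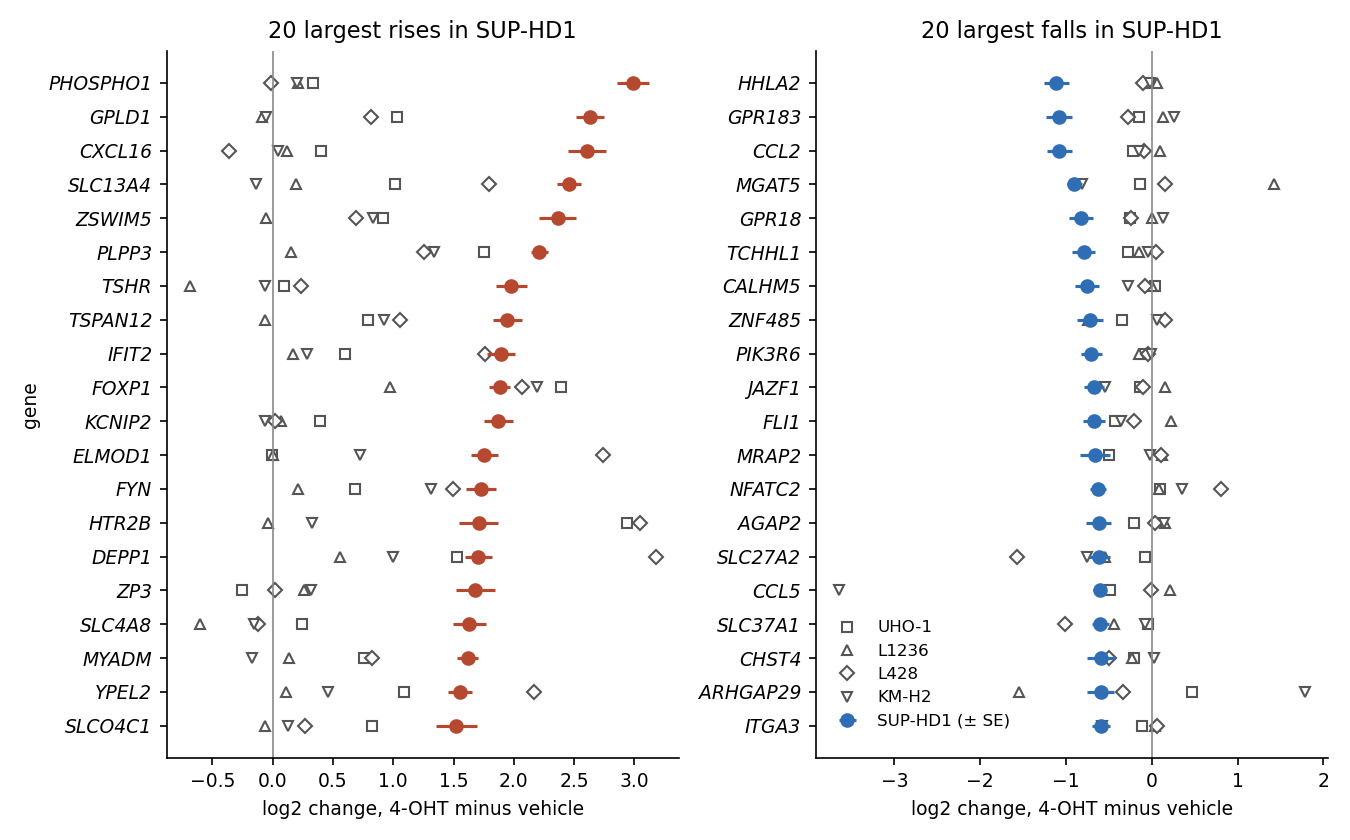
The log2 change with 4-OHT is shown for the 20 largest rises (left) and falls (right) of SUP-HD1, with SUP-HD1 as filled circles with the SE and each other line as an open symbol. Open symbols for PHOSPHO1, CXCL16 and ZP3 lie between -0.36 and 0.40, whereas those for FOXP1 and DEPP1 spread around or beyond the SUP-HD1 value.

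The falls were smaller than the rises, and the largest 3 were in genes of immune cell surface or secreted proteins. HHLA2, a ligand of the B7 family that modulates T cells, read 8.89 and 8.49 with vehicle and 7.75 and 7.40 with 4-OHT, a fall of 2.16-fold (log2 change -1.11 ± 0.145, adjusted p = 1.72e-05). GPR183, the receptor that positions B cells along oxysterol gradients, went from 9.25 and 9.05 to 8.13 and 8.01 (-1.08 ± 0.15, adjusted p = 5.04e-05). CCL2, a chemokine for monocytes, went from 8.76 and 8.64 to 7.54 and 7.71 (-1.08 ± 0.14, adjusted p = 2.11e-05). None of the 3 was called in another line, with changes between -0.28 and 0.26 there, and each fell more in SUP-HD1 than in the mean of the others (differences -1.08 ± 0.16, -1.07 ± 0.17 and -0.99 ± 0.16, adjusted p = 0.000109, 0.000246 and 0.000284). These genes were chosen for their large fall in SUP-HD1, which enters each difference. In UHO-1 and L1236 the vehicle means were 4.61 and 4.46 for HHLA2 and 5.28 and 5.17 for CCL2, near background in both lines, where a fall could hardly be measured.

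GPR18, a lipid receptor of lymphocytes, went from 9.57 and 9.45 to 8.71 and 8.65 (-0.83 ± 0.14, adjusted p = 0.00042). GPR18 and GPR183 are neighbours on chromosome 13, with 0 protein-coding genes between them in the RefSeq table. Among 27 chemokine ligands of the CC and CXC families tested, a group chosen after their values were seen, CXCL16 was called higher and CCL1, CCL2 and CCL5 lower, against 3.68% and 2.35% of all genes. CCL5 went from 9.14 and 9.22 to 8.55 and 8.59 (-0.61 ± 0.080, adjusted p = 1.87e-05) and CCL1 from 9.50 and 9.47 to 9.01 and 8.81 (-0.57 ± 0.12, adjusted p = 0.00349, and 0.0993 without 4-OHT replicate 2). CCL2 and CCL1 lie on chromosome 17 with 4 protein-coding genes between them.

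Enzymes, adaptors and transcription factors made up most of the rest. MGAT5, which branches the glycans of surface proteins, went from 9.23 and 9.16 to 8.34 and 8.25 (-0.90 ± 0.093, adjusted p = 5.08e-07), but it rose by 1.42 in L1236, and the 2 responses differed by -2.32 ± 0.13 (adjusted p = 1.65e-11). NFATC2, a factor of antigen receptor signalling, fell by 0.63 ± 0.093 in SUP-HD1 and rose by 0.81 in L428 and 0.35 in KM-H2 (difference from the mean of the other 4 -0.97 ± 0.10, adjusted p = 1.24e-06). FLI1, an ETS factor of blood cells, fell by 0.67 ± 0.13, the chromatin protein JAZF1 by 0.68 ± 0.11, PIK3R6, a regulatory subunit of PI3K gamma, by 0.70 ± 0.125, the integrin ITGA3 by 0.59 ± 0.11, the sugar phosphate transporter SLC37A1 by 0.60 ± 0.097, the channel gene CALHM5 by 0.75 ± 0.145 and TCHHL1 by 0.79 ± 0.14.

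Of the 20 largest falls, 14 kept the call in each alternative tried. ZNF485 (-0.72) lost it without 4-OHT replicate 2 (adjusted p = 0.0609), and the fatty acid transporter SLC27A2 (-0.61) without that array or vehicle replicate 1 (up to 0.0727). MRAP2 (-0.66, up to 0.181), CHST4 (-0.59, up to 0.349) and ARHGAP29 (-0.59, up to 0.272) lost it without vehicle replicate 1 or either 4-OHT array, and AGAP2 (-0.62, up to 0.384) without vehicle replicate 1 or 4-OHT replicate 1. In AGAP2 the 4-OHT arrays read 5.92 and 6.64 against 6.97 and 6.84 with vehicle, so a single array carried most of that fall. CHST4 and ARHGAP29 also lost the call with cyclic loess, CHST4 without the intensity trend, and AGAP2 when only the SUP-HD1 arrays were fitted. Of the 20, chosen for their fall in SUP-HD1, 9 were called lower in 0 other lines and 14 fell more than in the mean of the other 4.

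The responses shared by the other lines were smaller in SUP-HD1 on the median. In the 4 other lines together, 131 genes were called higher in each. In SUP-HD1, 53 of these were called higher, 40.5%, against 3.68% of all genes, and 121 had a change above 0. Their median change was 0.22 log2 units in SUP-HD1, whereas the median of their mean change in the 4 lines that chose them was 0.62. Of 137 genes called lower in each of the other 4, 38 were called lower in SUP-HD1, 27.7%, against 2.35% of all genes, and 129 had a change below 0 (median -0.17 in SUP-HD1, -0.42 in the others). Leaving out another line in the same way gave medians for the shared rises of 0.55 in UHO-1, 0.09 in L1236, 0.87 in L428 and 0.45 in KM-H2. The lowest of these 5 medians was thus that of L1236, with 18 of 147 called the opposite way, against 1 of 131 in SUP-HD1. For the shared falls SUP-HD1 had the smallest median, -0.17, against -0.19 in KM-H2, -0.25 in UHO-1, -0.27 in L1236 and -0.53 in L428, and the smallest share called, 27.7% against 52.1% to 97.4%. The single gene called the opposite way in SUP-HD1 was S100A10, a binding partner of annexin A2. It read 11.54 and 11.46 with vehicle and 11.01 and 11.09 with 4-OHT (-0.45 ± 0.051, limma adjusted p = 2.23e-06). In each other line it was called higher, with the smallest rise in L428 (0.32) and the next in UHO-1 (0.46). Without 4-OHT replicate 1, 31 of 117 such genes were called higher in SUP-HD1, and without 4-OHT replicate 2, 9 of 119 were called lower.

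Among the 10 largest shared rises, FOXP1, DEPP1 and RIPOR2 gave no call for a difference from the mean of the other lines, while RGS1 and CBLB rose less in SUP-HD1. RGS1, which shuts off chemokine receptor signals, read 10.18 and 9.90 with vehicle and 10.71 and 10.78 with 4-OHT, a rise of 0.70 ± 0.10 (adjusted p = 0.000107), against 1.94 to 3.83 in the other lines (difference from their mean -2.23 ± 0.12, adjusted p = 1.10e-11). CBLB, a ubiquitin ligase that dampens antigen receptors, went from 11.17 and 11.05 to 11.93 and 11.88, a rise of 0.79 ± 0.12, against 1.75 to 3.11 elsewhere (difference -1.60 ± 0.14, adjusted p = 3.57e-08). Both genes stood higher in vehicle cells of SUP-HD1 than in those of the lines normalised with it. The vehicle mean of RGS1 was 10.04 in SUP-HD1, 8.65 in UHO-1 and 5.10 in L1236, and that of CBLB 11.11, 8.79 and 9.52. With 4-OHT the RGS1 means were 10.74, 10.59 and 8.87, so the lines came closer together. Whether the vehicle level bears on the size of the rise was not tested.

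PRDM1, the repressor that drives plasma cell differentiation, was a weak case. It read 9.48 and 9.46 with vehicle and 9.95 and 9.81 with 4-OHT, a rise of 0.41 ± 0.12 (adjusted p = 0.043). That call was lost without any one of the 4 SUP-HD1 arrays and under 4 other settings (adjusted p up to 0.338). In L1236 PRDM1 rose by 5.04, from a vehicle mean of 5.33, and in UHO-1 by 0.47, from 9.73; the response of SUP-HD1 fell short of L1236 by -4.63 ± 0.17 (adjusted p = 2.27e-14) and differed from that of UHO-1 by -0.06 ± 0.17 (adjusted p = 0.882). FBXO32, a muscle-wasting gene and long-known FOXO target, rose by 0.51 ± 0.084 from 11.53 and 11.54 to 12.06 and 12.04 (adjusted p = 0.00034), with little spread within either arm. Its rise was 0.74 in UHO-1, 5.94 in KM-H2 and 3.89 in L428, and in L1236 it changed by 0.12 and was not called. The difference from the mean of these 4 lines was -2.16 ± 0.094 (adjusted p = 6.12e-13), but it was -0.23 ± 0.12 from UHO-1 (adjusted p = 0.311) and 0.39 ± 0.12 from L1236 (adjusted p = 0.0283).

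Most of the shared genes gave no call in SUP-HD1, 77 of the 131 rises and 99 of the 137 falls. TAGAP, a GTPase-activating protein of lymphocytes, read 5.44 and 5.58 with vehicle and 5.33 and 5.4 with 4-OHT (-0.15 ± 0.11, adjusted p = 0.577), near background in both arms, while it rose by 1.25 to 3.65 in the others (difference -2.36 ± 0.12, adjusted p = 6.13e-12). ANXA1, an anti-inflammatory annexin, stood at 11.93 and 11.79 against 11.78 and 11.75 (-0.09 ± 0.059, adjusted p = 0.513), and rose by 0.26 to 3.73 elsewhere (difference -1.63 ± 0.066, adjusted p = 3.40e-13). The nuclear receptor RORA moved by 0.53 ± 0.17 (adjusted p = 0.0818; difference -1.02 ± 0.19, adjusted p = 0.00163). The surface hyaluronidase CEMIP2 changed by -0.13 and rose by 0.25 to 2.47 elsewhere (difference -1.59). RBMS3, an RNA-binding gene, and the kinesin KIF13A are not shared genes, as L1236 did not call them, and changed by -0.08 and 0.18 in SUP-HD1 (differences -1.53 and -1.49). The homing receptor GPR15 ran against L1236, L428 and KM-H2, where it rose by 0.86 to 2.06. In SUP-HD1 it changed by -0.54 ± 0.14 (limma adjusted p = 0.0196), a call lost without vehicle replicate 1 or 4-OHT replicate 2. The call was also lost without the model's intensity trend, and when only the 12 arrays normalised together or the 4 SUP-HD1 arrays were fitted.

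Against the 2 lines normalised with it, SUP-HD1 responded differently in both comparisons and in the same sense for 169 genes, 95 more positive and 74 more negative. The 10 largest negative ones, besides TAGAP, RGS1, RORA, CBLB, HHLA2 and GPR183, were DUSP6, CTSH, ZBTB20 and HPSE. DUSP6, a phosphatase that switches off ERK, changed by -0.10 ± 0.14 in SUP-HD1, where it lay near background, and by 1.42 in UHO-1 and 1.35 in L1236. The protease gene CTSH changed by -0.11, against 0.85 and 1.26, the repressor ZBTB20 by -0.36, against 0.58 and 0.61, and the heparanase gene HPSE by 0.04, against 0.96 and 1.87. None of these 4 was called in SUP-HD1, whereas each rise in UHO-1 and L1236 was called.

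**Figure D4:**
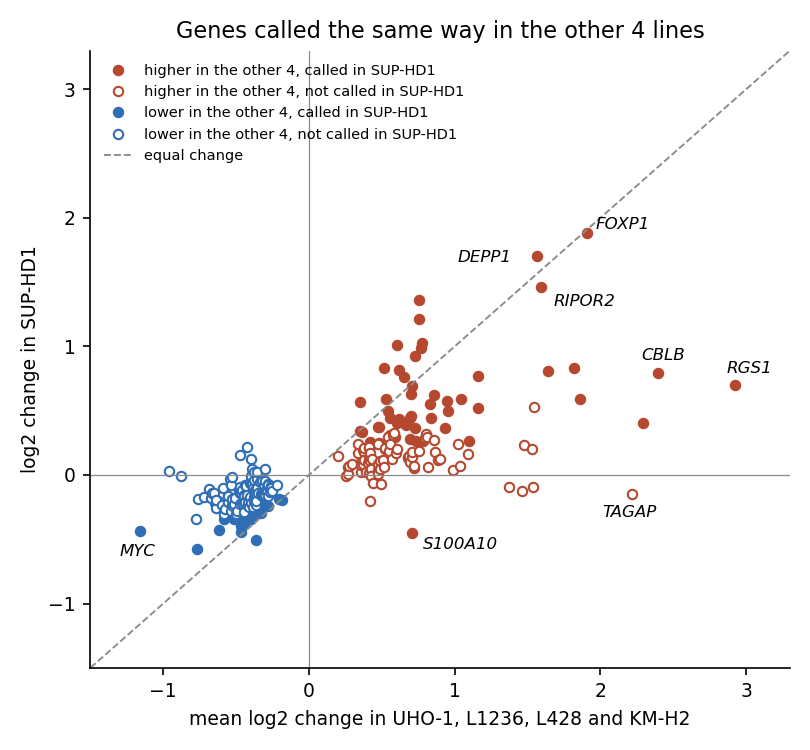
Each point is a gene called the same way in UHO-1, L1236, L428 and KM-H2, with its mean log2 change there on the x axis and its log2 change in SUP-HD1 on the y axis; filled points were called in SUP-HD1 and the dashed line marks equal change. FOXP1, DEPP1 and RIPOR2 lie near the line, RGS1, CBLB and TAGAP far below it, and S100A10 was called lower in SUP-HD1.

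A small set of shared genes rose at least as much in SUP-HD1 as in the mean of the other 4 lines. In 4 of the 131 genes the rise exceeded the mean of the other lines by the test of the difference, while 75 rose less; the choice of these genes used the other lines' values, so the counts are a description. The 4 were the homeobox gene SHOX2, the kinases SGK1, MAP3K1 and CDK17. SGK1, an AKT-related kinase, read 7.59 and 7.52 with vehicle and 8.84 and 8.69 with 4-OHT, a rise of 1.21 ± 0.11 against 0.47 to 1.11 in the others. MAP3K1, an activator of JNK signalling, rose by 1.01 ± 0.080, against 0.42 to 0.78 in the others. SHOX2 rose by 1.36 ± 0.11, but by 1.58 in UHO-1, and CDK17 by 0.83 ± 0.082, but by 0.91 in KM-H2. SLC44A2 (1.02), DOCK10 (0.98) and MALT1 (0.82), the last a protease of NF-kB signalling, gave no call for a difference from the others' mean. The limma adjusted p of these differences was 0.149, 0.144 and 0.48. Each rose further in another line, SLC44A2 in UHO-1 (1.59), DOCK10 in L428 (1.30) and MALT1 in KM-H2 (0.98).

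The known targets of FOXO factors responded in part. Of 39 tested, 13 were called higher (33.3%, against 3.68% of all genes) and 0 lower, with a median change of 0.18 log2 units against -0.03 over all genes. The count was 9 without 4-OHT replicate 1 and 10 to 12 without each other array. GADD45A, which halts the cycle after stress, read 8.99 and 8.94 with vehicle and 10.21 and 10.10 with 4-OHT, a rise of 1.19 ± 0.076 (adjusted p = 2.26e-10); it rose more here than in the mean of the other lines (0.51 ± 0.085, adjusted p = 0.00037) and fell by 0.25 in L1236. SESN1, a sestrin that restrains mTORC1, went from 7.79 and 7.73 to 8.86 and 8.76 (1.05 ± 0.098, adjusted p = 1.13e-07). CDKN1B, the cell cycle inhibitor p27, went from 10.24 and 10.10 to 10.72 and 10.72 (0.56 ± 0.071, adjusted p = 1.41e-05). The groups did not overlap for any of the 3, as was so for every gene called higher and for 19.1% of all genes tested.

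Further members called higher were PIK3IP1, an inhibitor of PI3K (0.77 ± 0.13), the growth factor receptor IGF1R (0.69 ± 0.084), the pro-apoptotic PMAIP1 (0.52 ± 0.081), the germinal centre repressor BCL6 (0.45 ± 0.071), GADD45B (0.52 ± 0.12), RICTOR of mTORC2 (0.44 ± 0.092), SOD2 (0.33 ± 0.083) and TNFSF10, the death ligand TRAIL (0.37 ± 0.095), beside DEPP1 and FBXO32. The calls of GADD45B, RICTOR, SOD2 and TNFSF10 were each lost without at least 2 of the SUP-HD1 arrays (adjusted p up to 0.093, 0.0594, 0.165 and 0.198). Among members not called, BCL2L11, the pro-apoptotic BIM, stood at 5.52 and 5.59 against 5.79 and 5.69 (0.19 ± 0.10, 95% interval -0.02 to 0.40, adjusted p = 0.377). SESN3 changed by 0.20 ± 0.078 (adjusted p = 0.153), and KLF2, a regulator of lymphocyte trafficking, by -0.07 ± 0.087 (95% interval -0.25 to 0.11), against a rise of 2.73 in L1236. FOXO1 itself was called lower, from 10.27 and 10.46 to 10.06 and 9.99 (-0.34 ± 0.080, adjusted p = 0.0104), a call lost without vehicle replicate 2 or 4-OHT replicate 2 (up to 0.168). ESR1, which gave the fused domain, was at -0.21 ± 0.13 (adjusted p = 0.447). It is not known whether these probe sets detect the fusion's mRNA, and they give no check of the treatment.

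Promoters of the called genes were searched on both strands for the core of the FOXO site, TGTTTAC, in the 300 bases from 250 before to 50 after the gene start (RefSeq, GRCh38.p14). It occurred in 15 of 470 promoters of genes called higher, 3.19%, in 2.17% of those called lower and in 2.27% of 12377 promoters of genes tested. The longer form TTGTTTAC, which contains the core, was found in 0.851%, 0.31% and 0.59%. The shares lay close together, and most called rises, PHOSPHO1 included, had no such letters in this window or no promoter in the table. DEPP1 (chr10:44978933-44979039, minus strand) and ELOVL6, a fatty acid elongase (chr4:110198702-110198808, minus strand), are shown because both were called higher and hold the core before their start, 180 and 143 bases from it. They are written 5′ to 3′ on the gene's strand, with the core, which lies on the opposite strand, in capitals:
DEPP1: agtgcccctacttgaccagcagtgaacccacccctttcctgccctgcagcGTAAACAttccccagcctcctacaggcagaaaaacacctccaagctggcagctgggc
ELOVL6: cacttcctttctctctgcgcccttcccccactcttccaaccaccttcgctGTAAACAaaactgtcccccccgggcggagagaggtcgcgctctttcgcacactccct
The rise of DEPP1 was from 8.35 and 8.48 to 10.19 and 10.05. That of ELOVL6 was smaller, from 8.05 and 7.63 to 8.41 and 8.32 (0.52 ± 0.12, adjusted p = 0.00858, and up to 0.211 without vehicle replicate 2 or 4-OHT replicate 1). A match of letters is a description and does not show that FOXO1 bound there.

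Of 25 genes of insulin and PI3K signalling tested, 6 were called higher (24.0%, against 3.68% of all genes), 1, FOXO1, lower and 18 not; the 6 include PIK3IP1, IGF1R and RICTOR, which also stand on the FOXO list. PIK3CB, a catalytic subunit of PI3K, read 8.84 and 8.65 with vehicle and 9.79 and 9.72 with 4-OHT, a rise of 1.01 ± 0.10 (adjusted p = 4.92e-07). Its change differed from the mean of the other lines by 1.05 ± 0.12 (adjusted p = 1.80e-06), and it fell by 0.64 in L1236 and by 0.41 in KM-H2. IRS1, the adaptor of the insulin receptor, rose by 0.60 ± 0.12 (adjusted p = 0.0029). INSR and IRS2 were not called, with changes of -0.11 ± 0.13 and 0.14 ± 0.12.

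Of 22 JAK-STAT genes, 2 were called higher (9.09%, against 3.68% of all genes) and 0 lower. They were the survival kinases PIM2 (from 10.72 and 10.64 to 11.41 and 11.36, 0.71 ± 0.073, limma adjusted p = 5.93e-07) and PIM1 (0.40 ± 0.074). SOCS1, the feedback inhibitor of the pathway, was lower with 4-OHT in each other line but stood at 10.42 and 10.60 against 10.42 and 10.67 in SUP-HD1 (0.03 ± 0.10, 95% interval -0.18 to 0.25). IL2RB, a cytokine receptor chain, likewise read 12.37 and 12.30 against 12.29 and 12.36 (-0.01 ± 0.085). In both genes the arms overlapped, and the responses differed from the mean of the others by 1.00 ± 0.12 and 0.87 ± 0.095 (adjusted p = 4.43e-06 and 1.64e-06). Both were far higher in SUP-HD1 than in the lines normalised with it, with vehicle means of 10.51 against 6.80 and 7.57 for SOCS1 and 12.33 against 7.90 and 6.64 for IL2RB in UHO-1 and L1236.

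Of 19 NF-kB subunits and targets, 3 were called higher (15.8%, against 3.68% of all genes), 1 lower (5.26%, against 2.35%) and 15 not. CD83, an activation marker of B and dendritic cells, read 8.58 and 8.53 with vehicle and 9.79 and 9.88 with 4-OHT, a rise of 1.28 ± 0.060 (adjusted p = 1.05e-12) that exceeded the mean of the others by 0.69 ± 0.067. TNFAIP3, the NF-kB inhibitor A20, rose by 0.44 ± 0.065 (adjusted p = 8.64e-05). Of 29 Hodgkin cell markers, 3 were called higher (10.3%, against 3.68% of all genes), 3 lower (10.3%, against 2.35%) and 23 not. CD40, a receptor of the TNF family, went from 8.99 and 8.92 to 9.36 and 9.34 (0.39 ± 0.079, adjusted p = 0.00287; difference from the mean of the others 0.54 ± 0.088, adjusted p = 0.00033). LTA, lymphotoxin alpha, went from a vehicle mean of 11.36 to a mean of 10.96 with 4-OHT (-0.40 ± 0.074, limma adjusted p = 0.00124). TNFRSF8, which was called lower in UHO-1, L428 and KM-H2 (-0.85 to -1.45), stood at 7.08 and 7.21 against 7.02 and 7.33 in SUP-HD1 (0.03 ± 0.091, 95% interval -0.16 to 0.22), with overlapping arms and a low starting level.

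Of 17 B cell identity genes and of 9 MHC class II genes, 0 were called in either direction. Over all genes 6.03% were called, so 0 in lists this short is close to that share. All 9 MHC class II genes had a change below 0, with a median of -0.21 against -0.03 over all genes. HLA-DPB1 changed by -0.21 ± 0.082 and HLA-DMA by -0.26 ± 0.089 (limma adjusted p = 0.151 and 0.101). Of 10 germinal centre genes, BCL6 and GCSAM, a regulator of lymphocyte motility, were called higher; GCSAM went from 10.23 and 9.90 to 10.87 and 10.92 (0.83 ± 0.11, adjusted p = 2.14e-05), less than in the mean of the others (difference -0.99 ± 0.12). Of 13 plasma cell genes, PRDM1 and POU2AF1, a B cell coactivator, were called higher (15.4%, against 3.68% of all genes). POU2AF1 went from 8.13 and 8.36 to 8.92 and 8.91 (0.67 ± 0.11, adjusted p = 0.000308), a rise that exceeded the mean of the others by 0.70 ± 0.12 (adjusted p = 0.00062). IRF4 read 12.11 and 12.13 against 12.10 and 12.11, XBP1 changed by -0.11 ± 0.054 and CD38 by 0.09 ± 0.15, and none of these 3 was called.

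Genes of growth and replication with a call were mostly lower, by small amounts. MYC went from 10.22 and 10.30 to 9.84 and 9.82, a fall of 1.35-fold (-0.43 ± 0.076, adjusted p = 0.000738), less than in the mean of the other 4 lines (difference 0.73 ± 0.085, adjusted p = 4.45e-06). Its antagonist MXD1 was called higher (0.50 ± 0.11, up to 0.101 without vehicle replicate 2 or 4-OHT replicate 1). Of 26 ribosome biogenesis genes, 9 were called lower (34.6%, against 2.35% of all genes) and 0 higher, and 25 had a change below 0 (median -0.22). POLR1B, the second-largest subunit of RNA polymerase I, fell most of the 9, from 9.38 and 9.17 to 8.91 and 8.71 (-0.47 ± 0.084, adjusted p = 0.000918, and 0.0501 without 4-OHT replicate 2). This list depended on single arrays: 9 were called without vehicle replicate 2, but 3, 1 and 0 without 4-OHT replicate 1, vehicle replicate 1 and 4-OHT replicate 2.

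Of 25 S phase genes, 13 were called lower (52.0%) and 0 higher, and 23 had a change below 0 (median -0.24). MCM2, a subunit of the replicative helicase, went from 10.49 and 10.39 to 10.15 and 10.06 (-0.33 ± 0.062, adjusted p = 0.00129), and MCM10, which helps to activate it, from 10.14 and 10.11 to 9.73 and 9.77 (-0.38 ± 0.063, adjusted p = 0.000399). MCM3, MCM4, MCM7, CDC45, GINS1, GINS2, PCNA, RFC3 and RFC4 were called lower too, with changes between -0.24 and -0.40. The count was 12, 10, 8 and 3 without vehicle replicate 2, 4-OHT replicate 1, vehicle replicate 1 and 4-OHT replicate 2. Of 25 mitosis genes, 4 were called lower (16.0%) and 1 higher (4.0%). Of 17 G1 genes, 2 were called lower (11.8%) and 1, CDKN1B, higher (5.88%). Over all genes tested, 2.35% were called lower and 3.68% higher. Apart from that of CDKN1B, each of these calls was lost without 4-OHT replicate 1, 4-OHT replicate 2 or vehicle replicate 1, and some also without vehicle replicate 2. With every array kept, each of them was also lost when the model's intensity trend was left out. CCND2, cyclin D2, stood at 12.76 and 12.66 against 12.57 and 12.49 (-0.18 ± 0.10, adjusted p = 0.428).

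Of 20 genes of one-carbon, serine and nucleotide synthesis, 6 were called lower (30.0%) and 0 higher (median -0.21), though 2 to 4 without each array in turn. CTPS1, which makes CTP, went from 9.77 and 9.67 to 9.36 and 9.30 (-0.39 ± 0.074, adjusted p = 0.00144), and the purine enzyme PAICS fell by 0.35 ± 0.068 (adjusted p = 0.00232, and 0.0516 without vehicle replicate 1). Of 16 chaperones, 4 were called lower (25.0%): HSPA4L (-0.58 ± 0.097), HSPA8 (-0.31 ± 0.052), the mitochondrial HSPD1 (-0.27 ± 0.056) and CCT2 (-0.30 ± 0.063), the last 2 lost without 4-OHT replicate 2 and CCT2 also without vehicle replicate 1 (up to 0.0667). Of 21 glycolysis genes, 3 were called lower (14.3%, against 2.35% of all genes). ENO1, enolase, went from 12.32 and 12.37 to 12.10 and 12.09 (-0.25 ± 0.043, limma adjusted p = 0.000546). The others were PFKP (-0.24 ± 0.065) and the glucose transporter SLC2A1 (-0.24 ± 0.056, adjusted p = 0.011). The last 2 calls were each lost in at least 2 of the fits without an array. With every array kept, both were lost without the intensity trend and when only the SUP-HD1 arrays were fitted, and PFKP also with median centring.

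The E-box CACGTG, a palindrome bound by MYC and related factors, was found in 43 of 323 promoters of genes called lower, 13.3%, in 8.09% of those called higher and in 9.44% of all promoters of genes tested. MCM2 (chr3:127598350-127598410, plus strand), MTHFD1, a one-carbon enzyme (chr14:64388288-64388352, plus strand), and HSPD1 (chr2:197500307-197500412, minus strand) are shown, since they stand for the replication, nucleotide and chaperone genes that were lower and have the E-box 11, 15 and 88 bases before the start. The capitals mark the E-box:
MCM2: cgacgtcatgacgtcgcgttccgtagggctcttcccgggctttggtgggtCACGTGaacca
MTHFD1: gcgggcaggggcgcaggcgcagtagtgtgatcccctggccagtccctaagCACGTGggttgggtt
HSPD1: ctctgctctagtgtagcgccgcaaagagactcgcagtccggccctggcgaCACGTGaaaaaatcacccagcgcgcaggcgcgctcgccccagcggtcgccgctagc
MTHFD1 went from 10.65 and 10.61 to 10.42 and 10.27 (-0.28 ± 0.072, adjusted p = 0.019), a call lost without either vehicle array or 4-OHT replicate 2 (up to 0.296). HSPD1 went from 11.15 and 11.20 to 10.92 and 10.88.

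**Figure D5:**
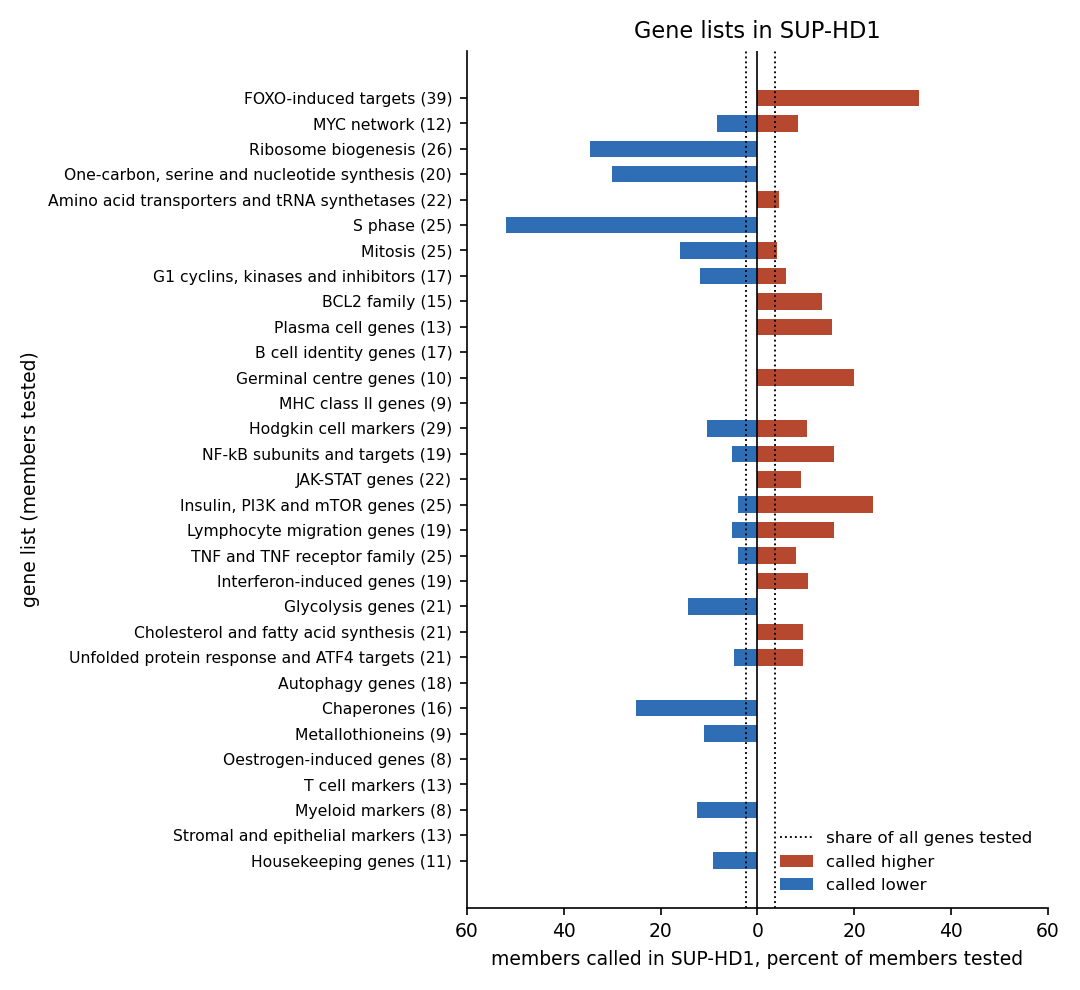
Bars give the share of tested members of each gene list called higher (right) or lower (left) in SUP-HD1, with the number of members tested in brackets and the share of all genes tested as dotted lines (3.68% higher, 2.35% lower). FOXO-induced targets reach 33.3% higher, and S phase genes reach 52.0% lower.

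The remaining lists gave few calls, and over all genes tested 3.68% were called higher and 2.35% lower. Of 19 lymphocyte migration genes, RGS1, the chemokine receptors CXCR4 (0.39 ± 0.073, adjusted p = 0.00115) and CCR6 (0.58 ± 0.12, lost without 4-OHT replicate 1, adjusted p = 0.0605) were called higher and GPR183 lower; CCR7, which was called higher in each other line, moved by 0.12 ± 0.055 (adjusted p = 0.281). Of 19 interferon-induced genes, IFIT2 and IFI6 (0.59 ± 0.13, up to 0.0887 without vehicle replicate 2 or 4-OHT replicate 1) were called higher and 0 lower. INSIG1, which restrains sterol synthesis, went from 9.18 and 9.17 to 10.12 and 10.16 (0.96 ± 0.066, adjusted p = 7.80e-10), and with ELOVL6 it was called higher among 21 cholesterol and fatty acid genes, of which 0 were lower. Of 21 unfolded protein response and ATF4 genes, HERPUD1 (0.40 ± 0.067) and CHAC1 (0.45 ± 0.13, lost without any one array, up to 0.252) were called higher and EDEM1 (-0.42 ± 0.085, 0.0658 without vehicle replicate 2) lower. Of 15 BCL2 family genes, PMAIP1 and BCL2A1 (0.44 ± 0.10, up to 0.156 without vehicle replicate 2 or 4-OHT replicate 2) were called higher, and of 25 TNF and TNF receptor genes 2 higher and 1 lower. Of 22 amino acid transporter and tRNA synthetase genes, SLC1A4 was called higher (0.34 ± 0.071, lost without vehicle replicate 2 or 4-OHT replicate 1). Of 9 metallothioneins MT2A was called lower (-0.20 ± 0.061). That call was lost without any one array and, with every array kept, under 5 other settings, median centring, quantile normalisation and cyclic loess among them.

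Several lists gave 0 calls by limma: 18 autophagy genes (median 0.10), 8 oestrogen-induced genes (-0.08), 13 T cell markers (-0.09) and 13 stromal and epithelial markers (0.00). Over all genes tested 6.03% were called and the median change was -0.03. In lists this short, 0 calls is close to that share and does not show that their genes were unmoved. Of a longer list of 8 myeloid markers CSF1R, which is not in the short set above, was called lower (-0.40 ± 0.11). Of 11 housekeeping genes the transferrin receptor TFRC was (-0.24 ± 0.060). Both calls were lost in at least 3 of the 4 fits without an array. With every array kept, CSF1R lost the call under 4 other settings, cyclic loess among them, and TFRC without the intensity trend.

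Of its 583 rises, 478 were called higher in at least 1 other line and 53 in all 4. For the 373 falls the numbers were 312 and 38. Each other line by itself called 8.25% to 13.4% of all genes higher and 11.1% to 17.5% lower. The share of all genes called in at least 1 of these lines was not counted. UHO-1 shared 65.5% of the rises, which were 18.0% of its own, and it called 13.4% of all genes higher. L1236 shared 22.1% of the rises, 9.87% of its own, against 8.25% of all genes called higher there, and it called 12.5% of them lower, against 14.9% of all genes. Of the falls, L428 shared 68.4%, against 17.5% of all genes called lower there, and UHO-1 36.7%, against 11.1%. Tested directly, the response differed between SUP-HD1 and UHO-1 for 641 genes (4.04% of those tested), 199 more positive (1.26%) and 442 more negative (2.79%) in SUP-HD1, and between SUP-HD1 and L1236 for 2227 genes (14.1%), 1402 more positive (8.85%) and 825 more negative (5.21%). Against the mean of the other 4 lines 1045 genes differed (6.59%), 536 more positive (3.38%) and 509 more negative (3.21%). The numbers more positive and more negative than in UHO-1 both rose without SUP-HD1 vehicle replicate 2. Both fell when any other SUP-HD1 or UHO-1 array was left out.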

How the data were processed

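The authors deposited log2 values from Affymetrix Human Gene 1.0 ST arrays, normalised by RMA per the labels and the series' design text; its version is not given in the sources used here. Sorted values showed 2 normalisation runs, 1 of 8 arrays (KM-H2 and L428) and 1 of 12 (SUP-HD1, UHO-1 and L1236), so levels were compared between lines only within a run. Of 33268 probe sets, 19457 carried a single gene symbol, 1751 several, and 12060 were not listed. Of the single-symbol probe sets, 19426 matched RefSeq by Entrez identifier. Where a gene had more than 1 probe set (767 genes), its brightest by mean signal stood for it.

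Genes that reached log2 5 in 2 of 20 arrays were fitted with limma 3.58.1 in R 4.3.3, with 10 group means, empirical Bayes with an intensity trend and Benjamini-Hochberg adjustment over 15850 genes. Each line's 4-OHT mean was compared with its vehicle mean, as was the response of SUP-HD1 minus that of UHO-1, of L1236 and of the mean of the other 4 lines; these contrasts share the SUP-HD1 arrays. The code was tested on simulated data. The number of arrays limits the precision.

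Named genes were the 20 largest rises and falls with groups that did not overlap and a mean of at least log2 6 in the higher arm, 15 genes always named, up to 5 called members of each list (smallest p) and any called against the list's direction, the 10 largest differences each way from both UHO-1 and L1236 and from the other 4 lines, and the 10 largest shared changes of the other 4 lines each way. Other genes named, such as CCL1, the tetraspanins, SLC44A2, DOCK10, MALT1 and further list members, were chosen after their values were seen. The 31 lists held 578 genes, of which 56 were not tested. The members and lists were chosen with earlier results of these data known. Alternatives changed the scaling, the floor, the trend, the probe set rule, the arrays fitted and the replicate block.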

Additional observations from a re-analysis of the deposited data

Results flagged for a closer look

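Each value here was singled out because the response of SUP-HD1 differed from that of another line by the limma test of the difference itself. Against UHO-1, 199 genes were more positive and 442 more negative in SUP-HD1. Against L1236 the counts were 1402 and 825, and against the mean of the other 4 lines 536 and 509.

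The log2 responses that exceeded those of UHO-1 were PHOSPHO1 by 2.65, CXCL16 by 2.21, TSHR by 1.88, GPLD1 by 1.60, KCNIP2 by 1.48, ZSWIM5 by 1.45, SLC13A4 by 1.44 and SLC4A8 by 1.39. ELMOD1 exceeded L1236 by 1.75 and ZP3 by 1.42. For these 10 genes, the smaller of the differences from UHO-1 and L1236 is given.

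More negative than in UHO-1 were TAGAP (-1.40), RGS1 (-1.24), RORA (-1.08), HHLA2 (-1.06), CTSH (-0.96), ZBTB20 (-0.94), GPR183 (-0.93) and HPSE (-0.93). DUSP6 (-1.44) and CBLB (-0.95) were more negative than in L1236. HHLA2 and GPR183 fell in SUP-HD1, and DUSP6, TAGAP and HPSE lay near background there in both arms.

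Against the mean of the other 4 lines, FBXO32 (-2.16), PRDM1 (-1.88), GPR15 (-1.66), ANXA1 (-1.63), CEMIP2 (-1.59), RBMS3 (-1.53) and KIF13A (-1.49) were more negative and TMEM164 (1.42) more positive.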

How the results depend on the processing

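Of 114 named genes called in SUP-HD1, 67 kept the call in each alternative run, 17 lost it only without 1 array and 30 under another setting; 0 changed direction. Of 22 not called, 2 were called under at least 1 alternative. For some genes above, a lost call is described only by the array left out. The calls of FOXO1, CHAC1, TNFSF10 and MTHFD1 were also lost without the intensity trend. Those of BCL2A1 and EDEM1 were also lost when only the SUP-HD1 arrays were fitted. The counts moved more. Without each SUP-HD1 array in turn, 278 to 549 genes were higher in SUP-HD1 and 87 to 348 lower; without each UHO-1 or L1236 array, 556 to 622 and 337 to 392. Without each array of the lines compared, genes more positive than in UHO-1 numbered 108 to 259 and more negative 257 to 685, more positive than in L1236 881 to 1565, and, over the SUP-HD1 arrays, against the mean of the other 4 lines 245 to 424 more positive and 257 to 475 more negative (478 to 570 and 446 to 577 over UHO-1 and L1236 arrays). Over the SUP-HD1 arrays, of the genes shared by the other 4 lines, 31 to 44 were called higher and 9 to 27 lower. Quantile normalisation gave 570 genes lower, 311 more positive than in UHO-1 and 79 shared genes lower. Without the trend 202 genes were lower, and 10 shared genes. Median centring gave 18 shared genes lower, and cyclic loess 80 shared genes higher. These shared lists were chosen anew in each setting, so their sizes differed too. The cause of the other shifts was not tested.

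With the replicate block, 541 genes were higher and 316 lower in SUP-HD1, with 157 and 393 against UHO-1, 1264 and 735 against L1236 and 464 and 435 against the mean of the other 4 lines. The correlation of deviations between same-numbered arrays was 0.28 in SUP-HD1, 0.30 in UHO-1, 0.03 in L428, -0.08 in KM-H2 and -0.55 in L1236, so the numbers were not taken to pair the arrays. With the numbers crossed in L1236, a choice made after seeing the data, the counts against L1236 were 1831 and 1103.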

Other observations

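Tetraspanins, surface proteins that organise receptors in membrane patches, were looked at as a family because TSPAN12 was among the largest rises, a choice made after the values were seen. Of 18 tested in SUP-HD1, 5 were called higher and 1 lower by limma, against 3.68% and 2.35% of all genes (median change 0.11). TSPAN14 read 9.21 and 9.19 with vehicle and 9.87 and 9.75 with 4-OHT, a rise of 0.61 ± 0.079 (adjusted p = 1.33e-05). TSPAN33, known from activated B cells, rose by 0.45 ± 0.060 (adjusted p = 2.3e-05) and TSPAN7 by 0.38 ± 0.070 (adjusted p = 0.00109). The call of TSPAN31 (0.41) was lost without 4-OHT replicate 1 and that of TSPAN13 (-0.37) without 3 of the 4 arrays. TSPAN13 also lost it with median centring, cyclic loess, no trend, the replicate block or only the 12 arrays normalised together. For TSPAN14, TSPAN33 and TSPAN7 both 4-OHT arrays exceeded both vehicle arrays, as was so for every gene called higher and for 19.1% of all genes tested.

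Among 38 FOX genes tested, FOXP1 was called higher, and FOXO1 and FOXM1, a driver of mitotic genes, lower. Over all genes tested, 3.68% were called higher and 2.35% lower. FOXM1 went from 10.68 and 10.69 to 10.48 and 10.47 (-0.21 ± 0.060, limma adjusted p = 0.034), a call lost without any one of the 4 SUP-HD1 arrays. It was also lost with median centring, no trend, the replicate block or only the 4 SUP-HD1 arrays. Of 16 KLF genes, KLF3 was called higher (0.40 ± 0.094, adjusted p = 0.0111, up to 0.147 without vehicle replicate 2 or either 4-OHT array). Of 3 GADD45 genes, 2 were called higher, and of 5 YPEL genes 1, YPEL2.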
